A study of Caenorhabditis elegans with 2 samples.

Results

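The genes examined here encode the machinery that reports nutrient state to the kinase complex TORC1 on the lysosome. They are 9 of the 19973 protein-coding genes on the nuclear chromosomes, taken by name but with earlier results of these data known. They comprise the Rag GTPases raga-1 and ragc-1, the Ragulator subunits lmtr-2, lmtr-3 and lmtr-5, the GATOR1 subunits nprl-2 and nprl-3, the folliculin gene flcn-1 and the sestrin gene sesn-1. Each gene was given a window from 5000 bp upstream of its annotated start to its annotated end. HLH-30 binding in these windows was read from peak lists of chromatin immunoprecipitation followed by sequencing. Chromatin came from whole hermaphrodite Caenorhabditis elegans at the late embryonic stage. The strain, OP433, has the genotype unc-119(tm4063) III; wgIs433, and its integrated transgene wgIs433 expresses HLH-30 joined at its C terminus to GFP and FLAG, which was precipitated through GFP. The series has 1 group with 2 biological replicates, and every worm carries the transgene and the unc-119 mutation. The labels name no promoter for the transgene and do not say whether the untagged hlh-30 gene was intact. Whole embryos were used, so strong binding in few cells and weak binding in many cannot be told apart.

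HLH-30 is the worm member of the TFEB family, basic helix-loop-helix leucine zipper proteins that recognise E-box DNA and are known as activators of lysosome and autophagy genes. When amino acids are plentiful, Ragulator holds a heterodimer of Rag GTPases on the lysosome surface, and the heterodimer brings TORC1 to its activator. GATOR1 switches RagA off, folliculin acts on RagC, and sestrins restrain the pathway when leucine is scarce, as known from mammals. In mammals TORC1 also keeps TFEB out of the nucleus, and folliculin and RagC take part in that step, so several of these proteins act upstream of the TFEB family. The binding data bear on whether HLH-30 occupies the genes of this machinery.

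HLH-30 summits of the optimal list lay in the windows of 4 of the 9 genes, ragc-1, lmtr-2, lmtr-3 and flcn-1, against 3005 of 19973, or 15%, of all protein-coding genes. The optimal list, the authors' strictest set, was thresholded by the irreproducible discovery rate (IDR), which scores how alike peaks rank in 2 replicates. Its 1959 peaks were those of highest signal in a longer list pooled over both replicates, so presence in it follows pooled signal. Of them, 1869 had a summit within 100 bp in both replicate lists, so presence alone does not show a peak in each replicate. The longer pooled list is named as peaks and background. These 4 windows held 5 optimal summits, because lmtr-3 had a pair of them. No optimal summit lay in the windows of raga-1, lmtr-5, nprl-2, nprl-3 or sesn-1. Windows differed in length, with a median of 6565 bp over the members and 7027 bp over all genes. Among windows of up to 7500 bp, 3 of 7 members had an optimal summit, against 11.7% of genes. The members' windows together held 6.27 optimal summits per 100000 bp, against 1.95 in the whole nuclear genome. No test was made on the list, because its genes were chosen with earlier results of these data known.

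The 5 optimal summits are shown with their DNA because 4 of them had an E-box within 50 bp. The bases are from the RefSeq sequence of WBcel235 (ce11), 50 bp to either side of the summit, read 5′ to 3′ on the strand of the named gene. The last sequence is shorter because 13 bases of annotated UTR were left out. Capitals mark the hexamers CACGTG and its variant CATGTG as well as the repeats GAGAGA and CACACA, each on either strand, so that CATGTG may read CACATG.
ragc-1, 140 bp upstream of its start (chrIV:11605023-11605123, minus strand): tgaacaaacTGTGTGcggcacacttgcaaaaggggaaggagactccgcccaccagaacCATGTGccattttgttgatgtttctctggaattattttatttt
flcn-1, 183 bp upstream of its start (chrII:6928530-6928630, plus strand): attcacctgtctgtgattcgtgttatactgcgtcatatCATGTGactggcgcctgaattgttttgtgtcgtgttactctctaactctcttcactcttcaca
lmtr-2 window, 3091 bp upstream of lmtr-2 (chrV:8014147-8014247, minus strand): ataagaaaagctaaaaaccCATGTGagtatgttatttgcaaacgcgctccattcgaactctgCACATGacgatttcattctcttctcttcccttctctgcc
lmtr-3 window, 2742 bp upstream of lmtr-3 (chrV:11121394-11121494, plus strand): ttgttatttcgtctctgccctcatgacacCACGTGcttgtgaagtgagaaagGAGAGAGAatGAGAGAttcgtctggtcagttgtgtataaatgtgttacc
lmtr-3, 38 bp upstream of its start (chrV:11124098-11124185, plus strand): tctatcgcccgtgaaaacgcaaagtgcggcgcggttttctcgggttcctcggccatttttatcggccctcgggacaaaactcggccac

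CATGTG was the E-box at 3 of these 5 summits and CACGTG at 1. The canonical site of the TFEB family is CACGTG, of which CATGTG is a variant. Within 50 bp of the summit, CATGTG lay at 17.1% of all 1959 optimal summits (exact 95% binomial interval 15.5 to 18.8%), and CACGTG at 21.8%, or 428 of them. In the members' windows the CATGTG summits were those of ragc-1, flcn-1 and the lmtr-2 window. Within 25 bp of the summit the same number of member summits, 3 of 5, held CATGTG, against 10.8% of all. Either hexamer lay within 50 bp of 4 of the 5 member summits, against 37.3% of all. The exception was the summit beside the start of lmtr-3, which held none of the hexamers searched. None of the 5 optimal member summits held the longer palindrome TCACGTGA, present at 6.02% of all. It did lie within 50 bp of a replicate 1 summit in a coding exon of lmtr-3, of signal 12.2 and rank 4993. With 5 summits these counts describe the loci and were not tested.

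**Figure D1:**
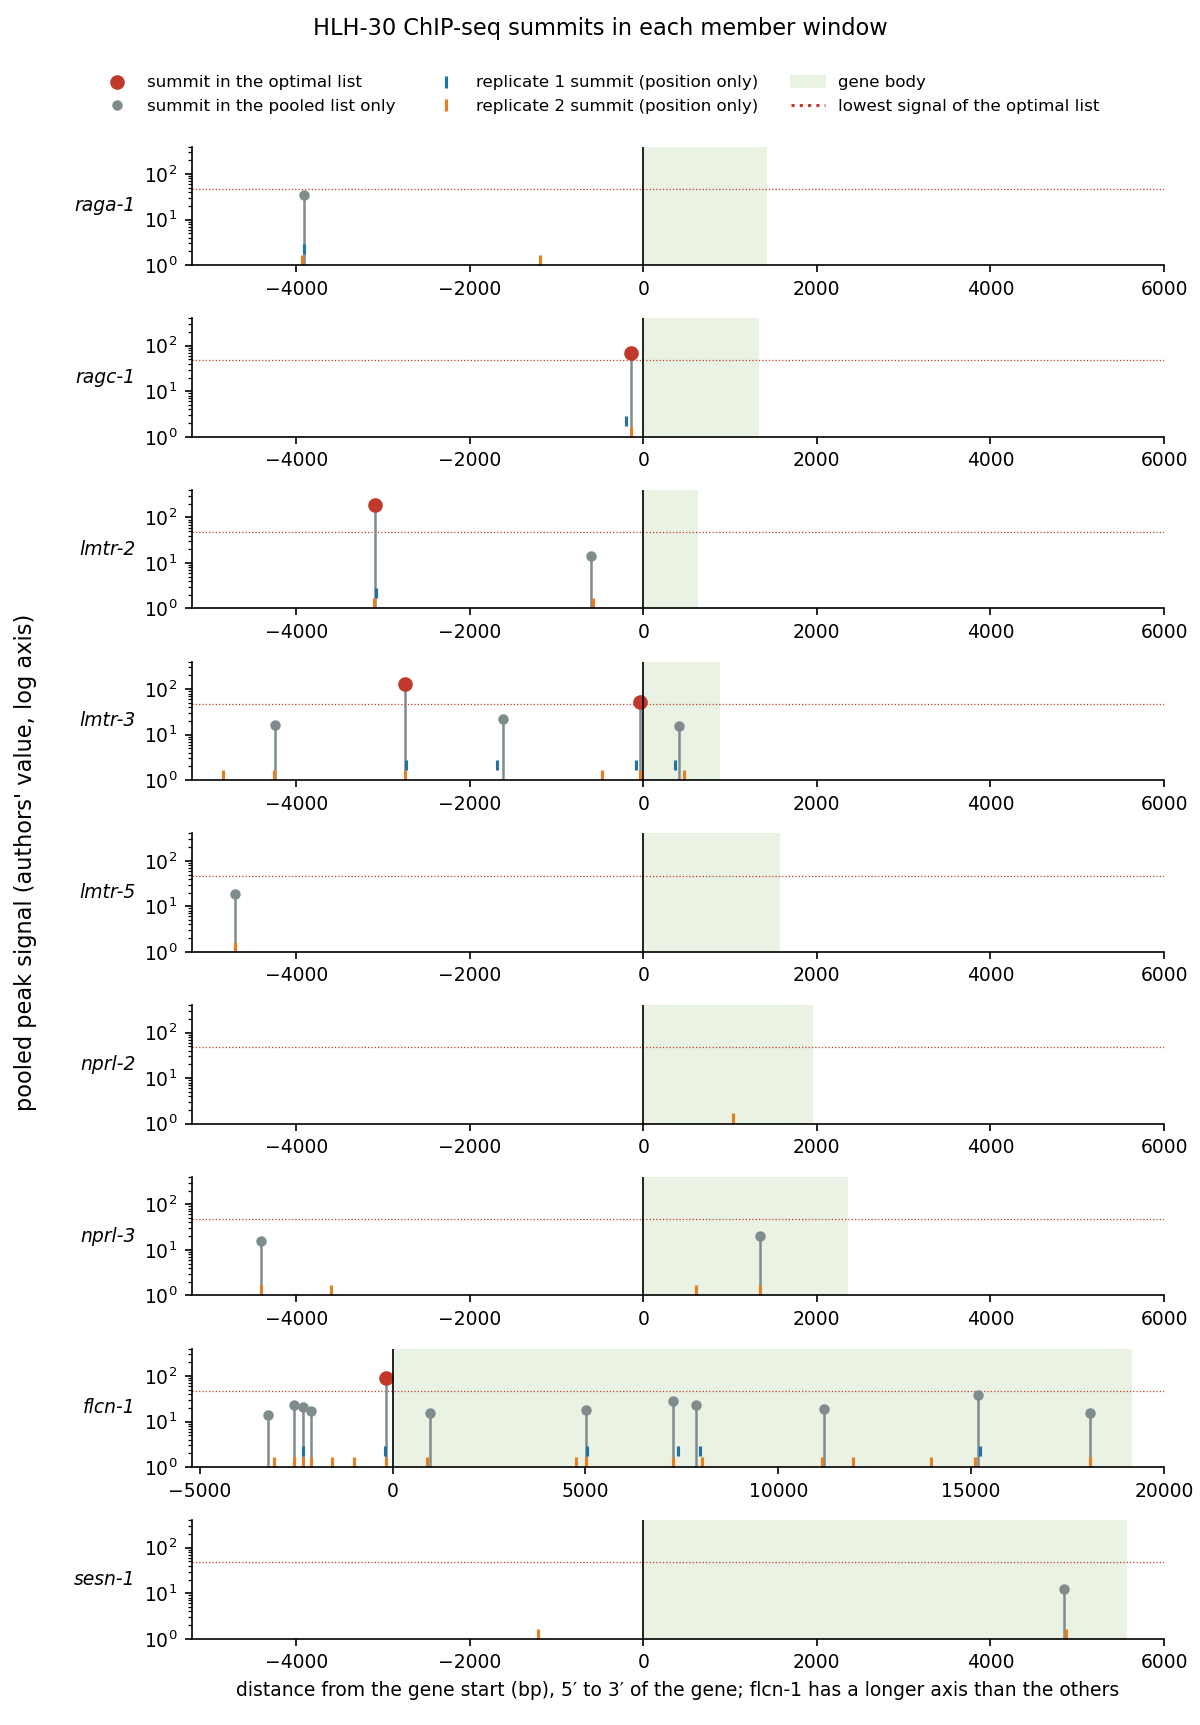
Position of every summit in each member's window. The x axis is distance from the annotated gene start in bp, read along the gene, with shading over the gene body, and the y axis is the authors' pooled signal on a log scale. Large red points are the 5 summits of the optimal list, grey points are summits of the pooled list only, and ticks mark replicate 1 and replicate 2 summits by position. The optimal summits of ragc-1, flcn-1 and the weaker one of lmtr-3 stand just upstream of the start, those of lmtr-2 and the stronger one of lmtr-3 lie 3091 and 2742 bp away, and 5 windows have none.

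The Rag GTPase genes differed from each other. The gene ragc-1, which encodes the homologue of mammalian RagC and RagD, lies on IV from 11603613 to 11604933 on the minus strand. Its optimal summit at 11605073 was intergenic, 140 bp upstream of the start, with a pooled signal of 69.9 and rank 1040. A summit stood 59 bp away in replicate 1, with signal 35.9 and rank 610, and 3 bp away in replicate 2, with signal 34.5 and rank 1681. Signal here is the authors' own value per peak, and its range differs between lists, so values are compared only within a list and ranks are given beside them. The summit fell between ragc-1 and the divergent gene Y24F12A.1, whose start was 181 bp away on the other side, so it cannot be given to ragc-1 alone. A CATGTG stood 10 bp from the optimal summit but 69 bp from that of replicate 1. The replicate 1 summit was also nearer to the start of Y24F12A.1, at 122 bp, than to that of ragc-1, at 199 bp. The window of ragc-1 held no further summit in any list.

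The partner gene raga-1, homologous to RagA and RagB, lies on II from 11301359 to 11302776 and had no optimal summit in its window. Its strongest pooled summit had signal 34.6 and rank 3319, below the lowest optimal signal of 47.7. It lay 3913 bp upstream of raga-1 and only 242 bp upstream of the start of saps-1, a gene named for a phosphatase regulatory subunit. Both replicates had it, at signal 11.3 and rank 6245 in replicate 1 and at signal 22.7 and rank 3497 in replicate 2. The gene saps-1 precedes raga-1 on the same strand and ends 98 bp before it. The nearest optimal summit, of signal 49.9 and rank 1815, lay 4482 bp from the start of raga-1, past the end of the gene and so outside the window.

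The strongest summits of the list lay in the windows of Ragulator genes, lmtr-2 and lmtr-3, but away from the starts of those genes. Ragulator is the scaffold that anchors the Rag GTPases to the lysosome. The window of lmtr-2, homologous to LAMTOR2, held the strongest summit of all 9 genes, with pooled signal 184 and rank 202 of 1959. It ranked 186 in replicate 1, with signal 69.1, and 204 in replicate 2, with signal 119. The peak ran from 8014118 to 8014259 on V, and its summit was 3091 bp upstream of lmtr-2, which spans 8010491 to 8011106 on the minus strand. Its nearest start, 246 bp away, was that of Y97E10AR.6. From that gene, rpb-9, an RNA polymerase II subunit gene, and then lmtr-2 follow on the same strand, with gaps of 51 and 106 bp. The summit thus stood before the first gene of a close tandem run traced upstream from lmtr-2. Whether the run goes on downstream of lmtr-2 was not examined. A pair of CATGTG sites lay 14 and 29 bp from it. Next to lmtr-2 itself the nearest pooled summit, 606 bp upstream, had signal 14.4 and rank 14825.

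The gene lmtr-3, homologous to LAMTOR3, lies on V from 11124186 to 11125056. It had both a summit at its own start and a stronger one further off. The summit 38 bp upstream of its start had pooled signal 53.3 and rank 1636, close to the lower end of the optimal list. Replicate 1 had it at signal 21.3 and rank 1523, and replicate 2 at signal 30.8 and rank 2040, which is beyond the 1959 strongest peaks of that replicate. The divergent gene atp-5, for a mitochondrial ATP synthase subunit, starts 281 bp from this summit. The stronger summit, with signal 127 and rank 369, lay 2742 bp upstream of lmtr-3 in an intron of mboa-2, an acyltransferase family gene on the other strand, and 307 bp from an annotated start of that gene. Its ranks were 354 in replicate 1 (signal 48.7) and 390 in replicate 2 (signal 80.2). This summit lay 18 bp from a CACGTG and also held the repeat GAGAGA.

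The remaining Ragulator gene, lmtr-5, homologous to LAMTOR5, lies on III from 3183677 to 3185241 and had no optimal summit nearby. Its nearest optimal summit was 88211 bp from the start. A pooled summit of signal 19.0 and rank 9221 lay 4706 bp upstream, in a coding exon of R148.3. Replicate 2 had it at signal 19.3 and rank 4647, and replicate 1 had no summit in the window. The gene R148.3 ends 31 bp before lmtr-5 on the same strand.

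The genes nprl-2 and nprl-3, for subunits of GATOR1, the complex that turns RagA off in mammals, had no optimal summit. The gene nprl-2 lies on IV from 7556816 to 7558761, and its start falls inside the annotated gene F49E8.8 on the same strand. Its window had no pooled and no replicate 1 summit, and 1 in replicate 2 at signal 6.78 and rank 19973. A CATGTG stood 28 bp upstream of the start of nprl-2, and the nearest optimal summit lay 17261 bp from that start. The gene nprl-3 lies on IV from 8297492 to 8299843. Its window held a pooled summit of signal 15.7 in a coding exon of K07H8.2, 4404 bp upstream. Another, of signal 20.6, lay in a coding exon of nprl-3 itself. These appeared in replicate 2 at ranks 15456 and 8473, and replicate 1 had none in the window. The gene before it on the same strand, tbce-1, a tubulin folding cofactor gene, ends 208 bp from nprl-3. The next 2 upstream, K07H8.2 and daf-31, follow with gaps of 97 and 35 bp. A pooled summit of signal 26.3 and rank 5326 lay 183 bp inside daf-31, the first gene of the run, and thus outside the window.

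The folliculin gene had the strongest summit that stood at a member's own start. In mammals folliculin works with a partner protein, FNIP, to switch the nucleotide state of RagC. The gene flcn-1 lies on II from 6928763 to 6947900 and is the longest of the list, at 19138 bp, with 7 annotated transcripts from 5 starts. Its optimal summit at 6928580 was intergenic, 183 bp upstream of the first start, with pooled signal 91.0 and rank 665. It ranked 726 in replicate 1, with signal 32.5, and 771 in replicate 2, with signal 54.1, with summits 14 and 13 bp from the pooled one. A CATGTG stood 9 bp away, and another, cut off by the end of the printed stretch, 50 bp away. The upstream gene, F22D3.4, is on the opposite strand, 1159 bp off, and no other gene lay within 500 bp of this summit. The window held 11 more pooled summits of signal 13.8 to 38.3, 7 inside the gene and 4 upstream of the optimal one. The strongest of these, rank 2778, lay in an intron 15169 bp into the gene and 373 bp from an internal start. Its replicate summits, of rank 3095 in replicate 1 and 2713 in replicate 2, were 60 and 69 bp from the pooled one on opposite sides, too far apart to count as shared. It had the highest signal of any member summit outside the optimal list, as the summit beside lmtr-3 had the lowest inside it.

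The sestrin gene sesn-1 had the weakest pooled signal among the 8 members that had any. Mammalian sestrins act through GATOR2, the complex that restrains GATOR1. It lies on the minus strand of chromosome I from 27589 to 33150. Its pooled summit, of signal 12.6 and rank 18690 of 18832, was in a coding exon 4849 bp into the gene. Replicate 2 had it at rank 17154, with another of rank 22123 upstream of the start, and replicate 1 had none in the window. The nearest optimal summit lay 16124 bp from the gene start.

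Each replicate on its own held the optimal summits of these genes. A summit shared within 100 bp by both replicate lists lay in the windows of 5 of 9 members, against 35.4% of all genes. These were raga-1, ragc-1, lmtr-2, lmtr-3 and flcn-1. All 5 optimal summits of the members had a summit in each replicate, as 95.4% of all optimal summits did. Among the 1959 strongest peaks of each replicate, 4 of the 5 were matched in both, against 67.9% of all. The longer lists reached most genes of either kind. The pooled list is named as peaks and background, so its weaker summits cannot be taken as binding. Of the 9 members, 8 had a pooled summit, against 71.4% of genes. In replicate 1, 5 had a summit, against 57.0%, and in replicate 2, 9 had one, against 82.9%. The replicate 2 list is longer, at 30000 peaks against 11695, and reaches down to a signal of 4.54.

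**Figure D2:**
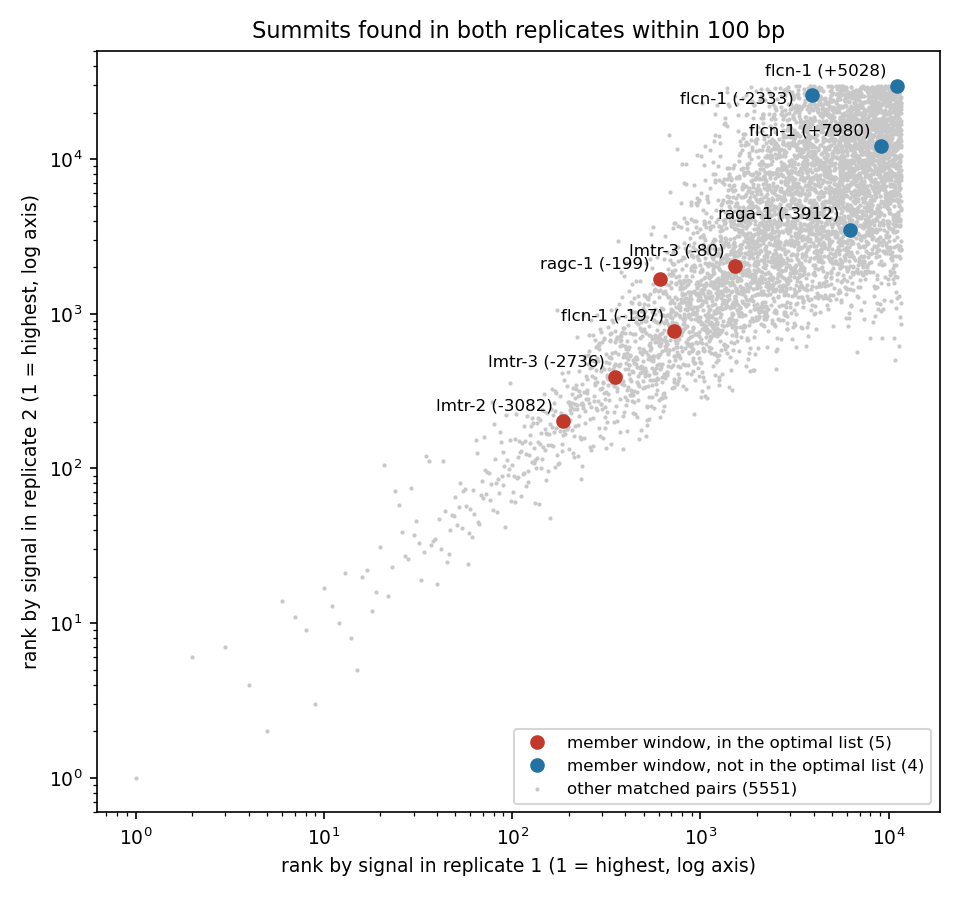
Rank of each summit found in both replicates within 100 bp, with replicate 1 on the x axis and replicate 2 on the y axis, both log axes on which 1 is the highest signal. Red points are the 5 member summits of the optimal list, blue points are 4 further shared summits in member windows, labelled by gene and distance in bp from its start, and grey points are all other pairs. The red points run from lmtr-2 at ranks 186 and 204 to lmtr-3 at ranks 1523 and 2040, and the blue points start at rank 3932 in replicate 1 and at rank 3497 in replicate 2.

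The strongest pooled signal in each window placed the members along the distribution of all genes. Windows with a stronger summit than the member's made up 1.70% of genes for lmtr-2, 3.06% for lmtr-3, 5.60% for flcn-1 and 8.52% for ragc-1. For raga-1 the share was 23.6%. It was 44.6% for nprl-3, 48.8% for lmtr-5 and 71.2% for sesn-1. With windows without a summit taken as 0, the median over the 9 members was 34.6 and that over all genes 18.6, with an upper quartile of 32.9 over all genes. The spread among members was thus wide, and the median itself belonged to raga-1, which had no optimal summit.

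**Figure D3:**
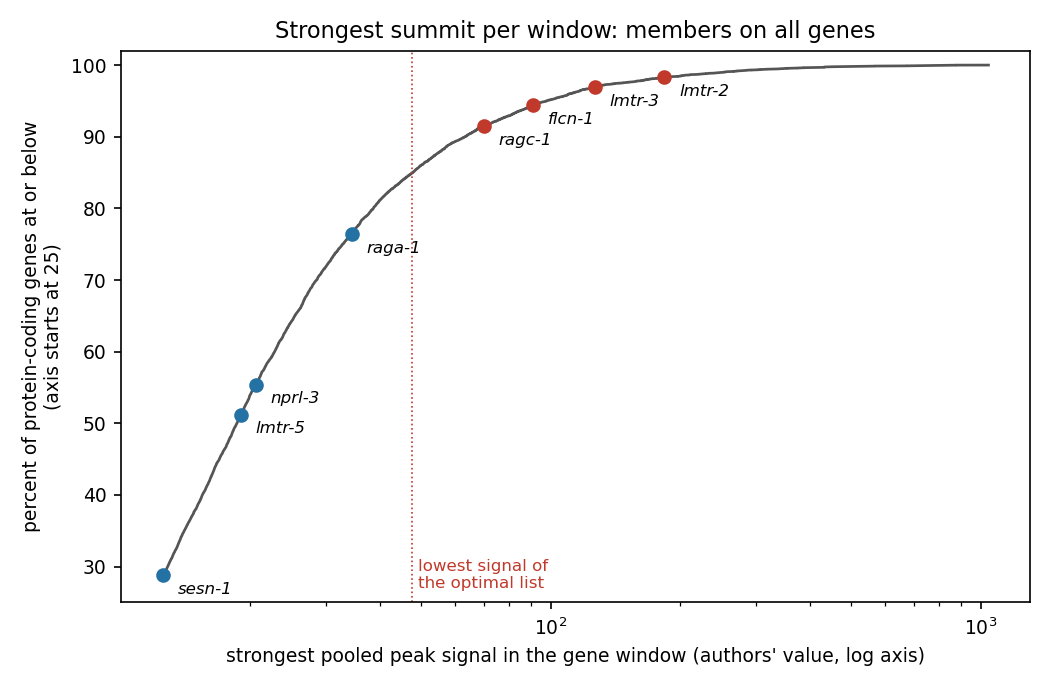
Cumulative share of protein-coding genes by the strongest pooled signal in their window, on a log x axis, with the members marked. The y axis starts at 25 because windows with no pooled summit are not drawn, which leaves out nprl-2. The 4 red points, ragc-1, flcn-1, lmtr-3 and lmtr-2, lie above the lowest optimal signal of 47.7, and the blue points lie below it.

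The members with an optimal summit at their own start were ragc-1, lmtr-3 and flcn-1. From 1000 bp upstream to 200 bp downstream of an annotated start, 3 of 9 members had an optimal summit, against 6.65% of genes. The same 3 were the members with an optimal summit nearest to their own start, against 7.58% of genes. Some members have their upstream neighbour on the opposite strand, at any distance, with no other gene over the start. Of these 4 members, 3 had such a summit near the start, against 9.61% of genes so arranged. The exception was sesn-1, whose neighbour txt-7 lay 10582 bp off, against 320, 318 and 1159 bp for ragc-1, lmtr-3 and flcn-1. The gene nprl-2 was left out of that count because F49E8.8 covers its start. Its upstream neighbour F49E8.7, 450 bp off, is also on the opposite strand, and nprl-2 had no optimal summit. Where the upstream neighbour is on the same strand and ends within 500 bp, 0 of 4 members had one, against 4.10% of genes so arranged, so low a share that 0 of 4 says nothing about the members. These 4 were raga-1, lmtr-2, lmtr-5 and nprl-3, with gaps of 98, 106, 31 and 208 bp. Nematode genes in close tandem runs are often transcribed together from 1 promoter as operons. Operon annotation was not used here, and the split by arrangement was made after the values were seen.

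**Figure D4:**
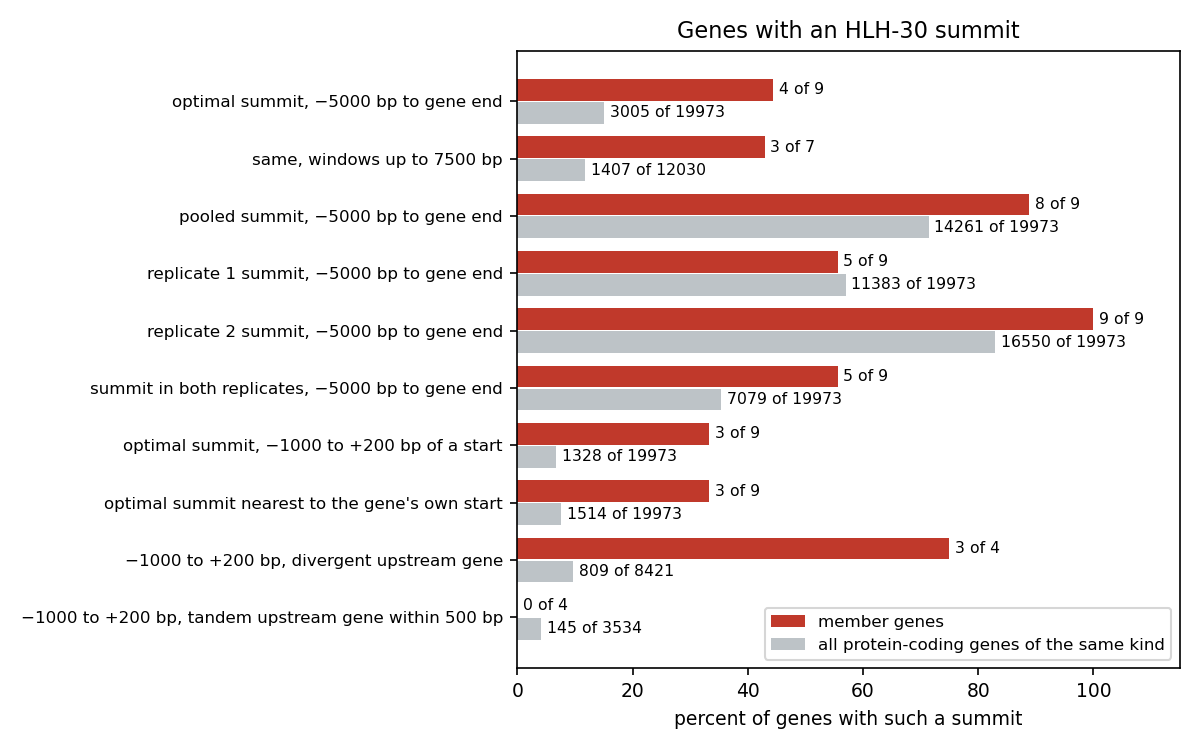
Percent of genes with an HLH-30 summit, on an axis from 0, for the members in red and for all protein-coding genes of the same kind in grey, with counts beside the bars. Each pair is 1 definition of a summit, and the bottom pairs split genes by their upstream neighbour. Members stand at 4 of 9 for an optimal summit in the window, against 15% of genes, and their share in replicate 1 is close to that of all genes.

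Over the members' whole windows, an optimal summit lay within 100 bp of 1 of 9 CACGTG sites, against 3.21% of such sites in the genome, and of 5 of 25 CATGTG sites, against 1.61%. From 250 bp upstream to 50 bp downstream of the gene start, 4 of 9 members held a CATGTG, namely ragc-1, nprl-2, flcn-1 and sesn-1, against 9.97% of genes. None of the 9 held a CACGTG there, against 5.82% of genes, too low a share for none of 9 to say anything about the members. The CATGTG had an optimal summit within 100 bp at ragc-1 and flcn-1, but not at nprl-2 or sesn-1. Over all genes with CATGTG in that stretch, 5.32% had such a summit. In the whole windows of the members there were 9 CACGTG and 25 CATGTG sites, which is 0.113 and 0.313 per 1000 bp, against 0.177 and 0.344 in the genome. Of the CACGTG sites, 8 lay in coding sequence, where 37.8% of all such sites lie. None of these 8 had an optimal summit within 100 bp, against 1.39% of coding sites in the genome. That share is so low that 0 of 8 says nothing about the members. A pooled summit lay within 100 bp of 3 of the 8, against 20.3% of coding sites. Those 8 lay in ragc-1, lmtr-3, nprl-3, flcn-1, sesn-1 and tbce-1. The single site outside coding sequence was the one under the stronger summit of the lmtr-3 window. Of 17 CATGTG sites outside coding sequence, 5 had an optimal summit within 100 bp, against 2.17% of such sites in the genome. These 5 sites lay by only 3 summits, those of ragc-1, flcn-1 and the lmtr-2 window already shown, so they are not independent.

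Other genes of the pathway carried optimal summits by the same window at shares that can be read beside the same 15% of all genes. Of 7 genes for the TOR complexes, their effectors and the TORC1 activator Rheb, 4 had one. The gene of that GTPase, rheb-1, led them with signal 134 at 279 bp upstream of its start. The raptor gene daf-15 followed with signal 85.5, and the kinase gene let-363 had signal 83.7 at a site 16009 bp into the gene and nearest to a start of vep-1. Of 11 genes for AMPK, the energy-sensing kinase, and its upstream kinase, 7 had one, led by aak-2, aakg-1 and aakb-2 with signals of 162, 127 and 110, the last nearest to a start of Y47D3A.14. Of 21 vacuolar ATPase genes, whose pump takes part in sensing amino acids in mammals, 8 had one, led by vha-14 with signal 118. The peaks of unc-32 and vha-8, with signals of 101 and 81.3, were nearest to starts of lin-9 and C17H12.2. All 3 genes of the last list had one. In it the folliculin partner gene fnip-2 had signal 431 and rank 35, 3169 bp upstream of its start and nearest to T04C4.3. The nucleoporin genes npp-20 and npp-18, whose mammalian homologues also serve in GATOR2, had signals of 92.3 and 51.7, the first 1650 bp upstream of npp-20 and nearest to a start of hxk-3. Near an annotated start, from 1000 bp upstream to 200 bp downstream, 2 of the 7 and 4 of the 11 had an optimal summit. So did 5 of the 21 and 1 of the 3, against 6.65% of all genes. Window lengths of these lists were not compared with those of all genes. No difference between these lists and the 9 members was tested. Optimal peaks ranked directly above and below that of the lmtr-2 window, all at signal 184, had as their nearest genes spin-4 at 134 bp and gid-8 at 616 bp.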

How the data were processed

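Peaks of an HLH-30 GFP chromatin immunoprecipitation were read from the deposited lists in ce11, 1 per biological replicate (11695 and 30000 peaks), 1 pooled over both (18832) and the optimal IDR list (1959). Per the deposited file descriptions, the authors made the replicate lists and the pooled list as input for IDR, each from the alignments of its replicate or of both and 1 further file whose role is not described, and thresholded the optimal list by IDR. The deposited name of the pooled list calls it peaks and background, so its weaker entries may be background. The signal of each peak is the authors' deposited value. The labels name a possible control experiment, and how it entered the peak signal is not stated. The sources used here state no aligner, peak caller, signal scaling or cut-off, and read depth is unknown. All 1959 optimal peaks were the pooled peaks of highest signal, so the signal served only to rank peaks within a list. That control and the ce10 lists were not analysed here.

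Summits are the peak start plus the deposited offset, counted from 1. Genes are the Ensembl release 115 models of WBcel235, the assembly also called ce11, and 99.8% of coding transcripts began with a start codon in the RefSeq sequence used. Nearest starts are those of any annotated transcript. Summits of different lists were matched within 100 bp, and motifs were sought within 50 bp of a summit, on either strand. Binomial intervals are exact at 95% and cover the counting of peaks only. No test was run, since the 2 replicates form 1 group. The window code was checked on simulated data. Work used Python 3.11.15, pandas 2.3.3, NumPy 2.4.6, SciPy 1.17.1 and matplotlib 3.10.9.

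The 9 members and the 4 lists of other pathway genes were chosen with earlier results of these data known. Named are all members, the nearest and upstream neighbours of their summits, up to 3 genes of each other list by signal, and the nearest genes of the peaks ranked beside the strongest member peak. Genes over which E-box sites lay, and those in tandem runs, were named after their values were seen. Alternatives were other window reaches, a promoter window, overlap of peak intervals, the nearest start only, the 979 optimal peaks of highest signal, other matching distances and motif widths, and each replicate alone.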

Additional observations from a re-analysis of the deposited data

How the results depend on the processing

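Over 38 alternative values, 30 stayed within 1.5 times the main one. Some of these could not move, since shorter windows still held the strongest summits of ragc-1 and flcn-1. A count of 3 beside a main value of 4 also falls within that factor. The count of members with an optimal summit, 4, was 3 to 4 in all 9 alternatives run, and 4 without either replicate, where the strongest peaks of the other replicate stood in for the optimal list. It was 3 with 1000 or 2000 bp upstream, with the promoter window and with the nearest start only, all of which lost lmtr-2, and 3 with the 979 optimal peaks of highest signal, which lost ragc-1. The share of all genes was 14.7 to 15.3% without a replicate. It moved to 8.26% with 1000 bp upstream, 6.65% with the promoter window, 7.58% with the nearest start only and 8.10% with those 979 peaks. With 2000 bp upstream it was 10.3%. With 10000 bp upstream it rose to 21.8%, beside 4 members. Members with a summit in both replicates numbered 3 with 1000 or 2000 bp upstream, against 20.7 and 25.3% of all genes, where those of raga-1 and lmtr-2 fell outside the shorter window. They numbered 4 with matching within 50 bp, which lost ragc-1, against 28.1% of all genes, and 7 with 10000 bp upstream, against 48.6%. The strongest signal of lmtr-3 moved to 53.3 with 1000 or 2000 bp upstream, since the stronger summit lay outside, and lmtr-2 then had no value. The strongest member peak ranked 186 to 204 in the single replicates. Member summits with either E-box numbered 4 within 25 and within 100 bp, against 25.3 and 45.7% of all optimal summits. With no read totals, a weak or absent summit cannot be read as absence of binding.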
